A study of Mus musculus with 6 samples.

Results

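The genes described are those of the cytosolic ribosomal proteins (RPs), the proteins that, with ribosomal RNA, build the small (Rps) and large (Rpl and Rplp) subunits of the ribosome in the cytosol. They were chosen by name alone, as protein-coding genes whose symbol is Rpl or Rps followed by a number, or Rplp0 to Rplp2, with an optional final a, x or l. Of the 54532 genes measured, 79 met this rule, 49 of the large subunit and 30 of the small. The rule takes in 4 paralogues with the final l (*Rpl3l*, *Rpl10l*, *Rpl39l* and *Rps27l*). It leaves out RPs with other names, such as *Rpsa*, *Rps3a1* and *Fau*, which are given separately.

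RNA-seq was done on ovarian granulosa cells (GCs), the somatic cells that surround the oocyte in the follicle, to ask how their transcripts differed after cyclophosphamide (CTX), an alkylating chemotherapeutic that damages DNA. The mice were immature ICR females, with no genetic change stated, and all of them received PMSG, a gonadotropin that makes follicles grow. On the day after PMSG they received a single injection of CTX or the same volume of PBS, and their GCs were taken 6 h later. The PBS and CTX groups held 3 samples each, with the GCs of several mice pooled per sample, so the spread between samples is one between pools. The values are FPKM, the number of read fragments per kilobase of gene, scaled to sequencing depth, and the rebuilt reads on genes came to between 16005869 and 18455011 per sample. All 12 GC markers examined, among them *Fshr*, *Foxl2* and *Inha*, had reads in every sample. They summed to 13876 to 15205 FPKM in PBS and 11907 to 12818 FPKM in CTX. Most of this sum was *Inha*, with 8556 to 10402 FPKM over all samples. In CTX replicate 2, *Cyp19a1* (6.61 FPKM, against 59.2 to 62.4 in PBS), *Inhbb* (530, against 1583 to 1658) and *Foxl2* (76.9, against 184 to 193) were lower. *Amh* (179, against 48.4 to 51.1) and *Amhr2* (142, against 73.6 to 79.9) were higher in it. CTX replicate 2 stood apart from the other samples. On the first principal component of all tested genes, which held 46.8% of the variance, it lay at 74.7, and the other 5 samples lay between -26.6 and 13.2. Its 6 theca cell markers summed to 26.2 FPKM, against 714 to 732 in PBS and 581 and 932 in the other CTX samples. Most of this sum was *Cyp11a1*, with 14.4 FPKM in CTX replicate 2 and 544 to 564 FPKM in PBS. The authors describe *Cyp11a1* and *Star* as luteinization-related genes regulated in GCs, so the sum is not specific to theca cells. *Cyp17a1* had 1.25 FPKM in CTX replicate 2 and 30.8 to 34.4 FPKM in PBS. *Ptch1* (6.55 FPKM, against 3.14 to 4.21 in PBS) and *Insl3* (0.81, against 0.27 to 0.40) were higher in CTX replicate 2. Its 10 leukocyte markers summed to 68.9 FPKM, against 23.4 to 37.5 in the other 5 samples. Most of that sum was *Lyz2*, with 45.8 FPKM in CTX replicate 2 and 13.1 to 14.3 FPKM in PBS. On average over the groups, 10 of the 12 GC markers, 4 of the 6 theca markers and 2 of the 7 leukocyte markers that entered the test were lower in CTX, none past the limits used below. All 9 oocyte markers that entered the test were higher in CTX, and the list of 10 summed to 39.7, 85.8 and 80.5 FPKM in PBS and 56.5, 98.5 and 95.8 FPKM in CTX. Of 7 stroma markers tested, 5 were higher, 1 of them (*Acta2*) past the limits. The full stroma list of 8 genes summed to 32.9 to 34.9 FPKM in PBS and 65.8, 31.5 and 55.6 FPKM in CTX. All 5 erythroid and 3 endothelial markers tested were lower in CTX on average. The erythroid list summed to 319 to 454 FPKM in PBS and to 359, 138 and 497 FPKM in CTX replicates 1, 2 and 3. It was thus lowest in CTX replicate 2 and highest of all samples in CTX replicate 3. The full endothelial list of 8 genes summed to 7.77 to 8.08 FPKM in PBS and to 6.64, 3.22 and 6.96 FPKM in CTX. No marker of these lists was without reads in all samples. The part of these cell type differences in the results was not tested. In bulk RNA, fewer cells of a type and less RNA per cell cannot be told apart.

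Every cell makes RPs in near-equal numbers, because each ribosome holds 1 copy of nearly all of them, and their mRNAs are among the most abundant in growing cells. In vertebrates most RP mRNAs begin with a cytosine and a run of pyrimidines, the 5′ terminal oligopyrimidine (TOP) motif, through which mTORC1 and the protein Larp1 control their translation. Several RPs that are not built into ribosomes bind Mdm2, the ubiquitin ligase of p53. For some RP genes, loss of 1 copy causes Diamond-Blackfan anaemia in people. RP genes have also left many processed pseudogenes in the mouse genome, whose sequence is close to that of the mRNA.

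The start sites of the RP genes were searched for this motif. Promoter sequences (RefSeq, GRCm38.p6) were matched for 59 of the 79 genes, with 71 annotated starts. A C followed by at least 5 pyrimidines, read on the gene's own strand, began within 5 bases of an annotated start in 25 of the 59 genes (42.4%), against 11.7% of the 17491 protein-coding genes in the same table. It began exactly at the start in 11 of the 59 genes (18.6%), against 1.90% of protein-coding genes. The windows below hold 15 bases before and 15 bases from the annotated start. Capitals mark the pyrimidine run, from a C that lies within 5 bases of the start. *Rps6*, *Rpl28*, *Rpl35*, *Rpl38*, *Rps10* and *Rps27* are shown for their runs, and *Rps27l* and *Rpl11* because none was found within 5 bases of the start.
Rps6, chr4:86857353-86857382, minus strand: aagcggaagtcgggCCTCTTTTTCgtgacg
Rpl28, chr7:4792950-4792979, plus strand: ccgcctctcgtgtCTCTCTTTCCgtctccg
Rpl35, chr2:39005117-39005146, minus strand: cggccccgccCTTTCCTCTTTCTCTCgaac
Rpl38, chr11:114668565-114668594, plus strand: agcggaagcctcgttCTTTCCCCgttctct
Rps10, chr17:27635230-27635259, minus strand: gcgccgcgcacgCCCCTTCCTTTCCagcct
Rps27, chr3:90213634-90213663, minus strand: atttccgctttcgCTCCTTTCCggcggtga
Rps27l, chr9:66946071-66946100, plus strand: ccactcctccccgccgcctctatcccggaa
Rpl11, chr4:136053379-136053408, minus strand: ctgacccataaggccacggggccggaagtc
The run was 10 bases long in *Rps6* and *Rpl28*, 16 in *Rpl35* (18 with the 2 pyrimidines just before it, which lie further than 5 bases from the start), 8 in *Rpl38*, 13 in *Rps10* and 9 in *Rps27*. *Rps27l* has another annotated start that is not shown, also without the run. These are matches of letters in a window around an annotated start, and a start used in GCs may lie elsewhere.

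RP transcripts were among the most abundant of the GC transcriptome in both groups. Of the 79 genes, 66 had a mean of at least 100 FPKM over the 6 samples, and 66 were among the 500 genes with the highest mean. The 76 genes with a mean of at least 0.5 FPKM, the level needed to enter the test, had a median of 267 FPKM, against 6.15 FPKM for the 14463 genes tested. The 5 highest were *Rplp1*, a protein of the stalk that recruits elongation factors (1775 FPKM), *Rpl36* (1016), *Rps15* (982), *Rpl41* (919) and *Rpl4* (868). The 5 lowest of the 76 were *Rpl34* (5.9 FPKM), *Rpl21* (2.61), *Rps10* (2.58), *Rpl24* (2.49) and *Rpl29* (2.38). All of these had most of the reads of their family (the gene and its annotated copies, mostly pseudogenes) on copies. The copies themselves did not always hold many reads. Those of *Rpl34* took 5886 to 8349 reads per sample, but those of *Rpl24* only 107 to 145. *Rpl13a* was also low (20.2 FPKM), with 3.19% of the reads of its family on copies. Why these genes were low was not tested. The order of the levels was nearly the same in every sample. Spearman's correlation over the 76 genes was 0.975 to 0.989 between samples of 1 group and 0.968 to 0.994 between samples of different groups, all of which share the gene lengths and the annotation. FPKM divides by the whole exonic length of a gene in the annotation, which was 816 bases for *Rps27l* and 3020 for *Rpl30*, so that levels of different RP genes depend on how many exons are annotated.

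**Figure D1:**
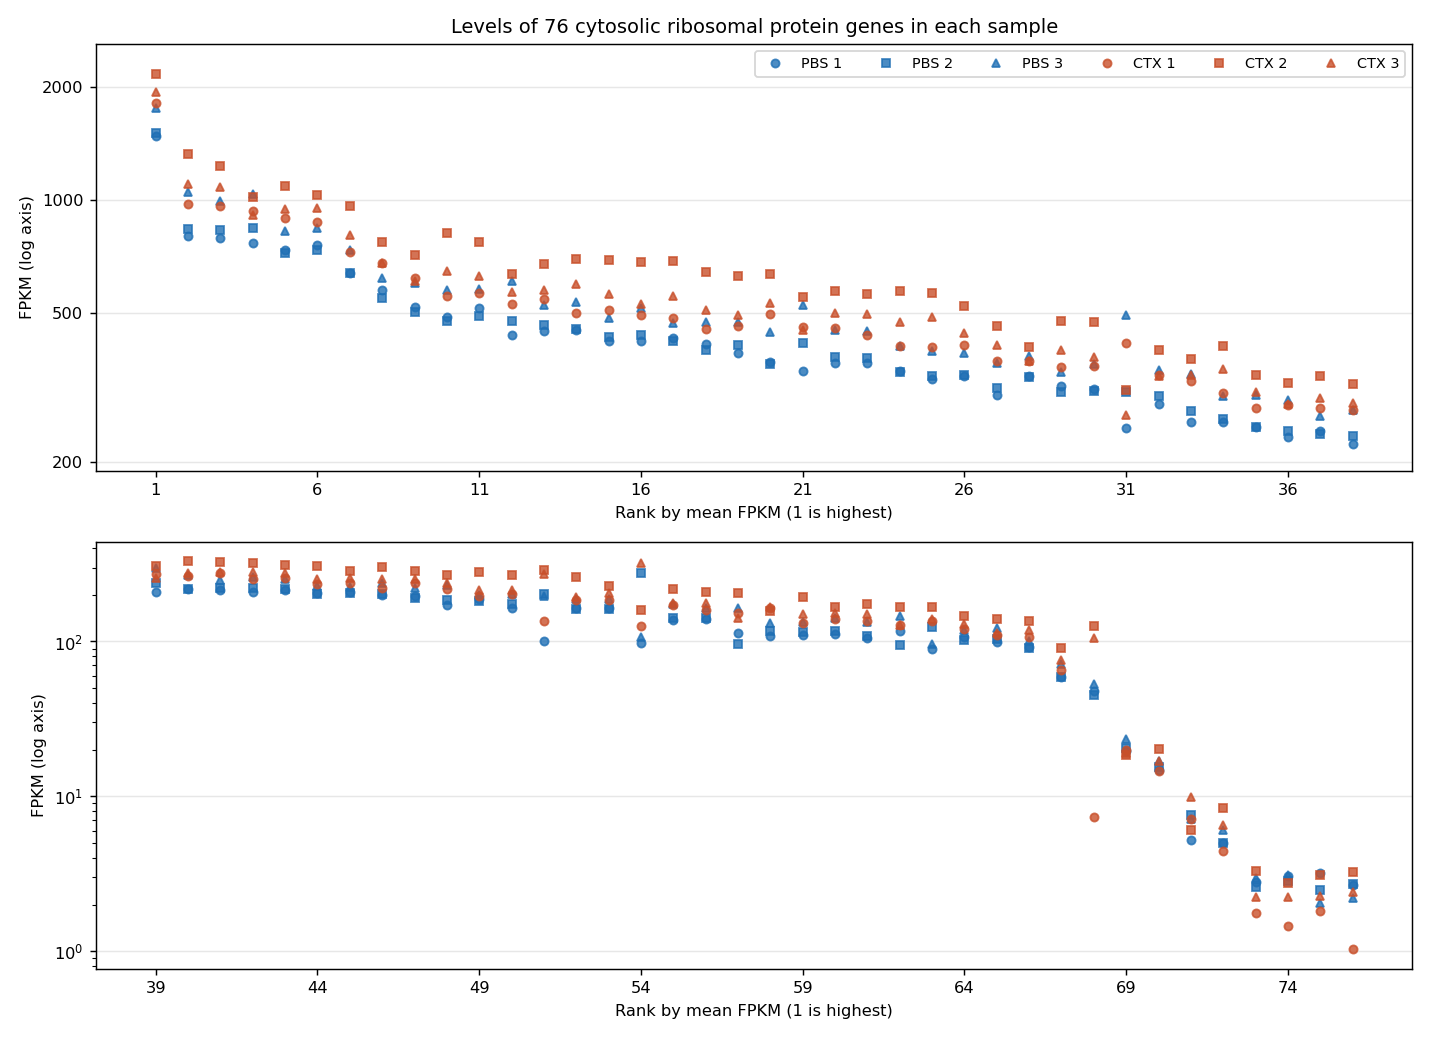
FPKM (log axis) of the 76 ribosomal protein genes that entered the test, ordered from highest to lowest mean (x axis, rank), with 1 symbol for each of the 3 PBS samples (blue) and 3 CTX samples (orange). *Rplp1* was highest in every sample, and the 8 genes at the right end, from *Rpl13a* to *Rpl29*, lay at or below 23.5 FPKM.

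The 3 RP genes that did not enter the test were paralogues known from muscle or testis. *Rpl39l* had 3, 8 and 3 reads in PBS and 1, 7 and 7 reads in CTX. *Rpl3l* had 0, 2 and 1 reads in PBS and 3, 2 and 1 in CTX, and *Rpl10l* had 2 reads in PBS replicate 3 and none in the other 5 samples, which allows up to 3 reads in each of these.

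The main comparison asked whether RP transcripts differed between GCs 6 h after CTX and after PBS. Of the 76 genes tested, 69 were higher and 7 lower in CTX on average, while 48.6% of all tested genes were higher. The median log2 difference over the 76 was 0.30 (quartiles 0.24 and 0.34), a fold of 1.23, and that over all tested genes was -0.0081. None of the 76 passed the limits for a differentially expressed gene (limma adjusted p below 0.05 and a change over 2-fold), which 0.961% of all tested genes passed, and none had an adjusted p below 0.05, which 1.76% had. At an unadjusted p below 0.05, 33 of the 76 were higher and 0 were lower, against 10.5% of all tested genes higher and 9.10% lower. With limma's voom on the rebuilt reads, 1 RP gene, *Rps27l*, had an adjusted p below 0.05, as did 2.00% of all genes. With limma's arrayWeights, which gave each sample its own weight and did not converge, 59 of the 76 did, but so did 39.8% of all genes. The upper end of the 95% interval lay below a 2-fold rise for 73 of the 76 genes, and the half-width of the interval had a median of 0.32 on the log2 scale.

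**Figure D2:**
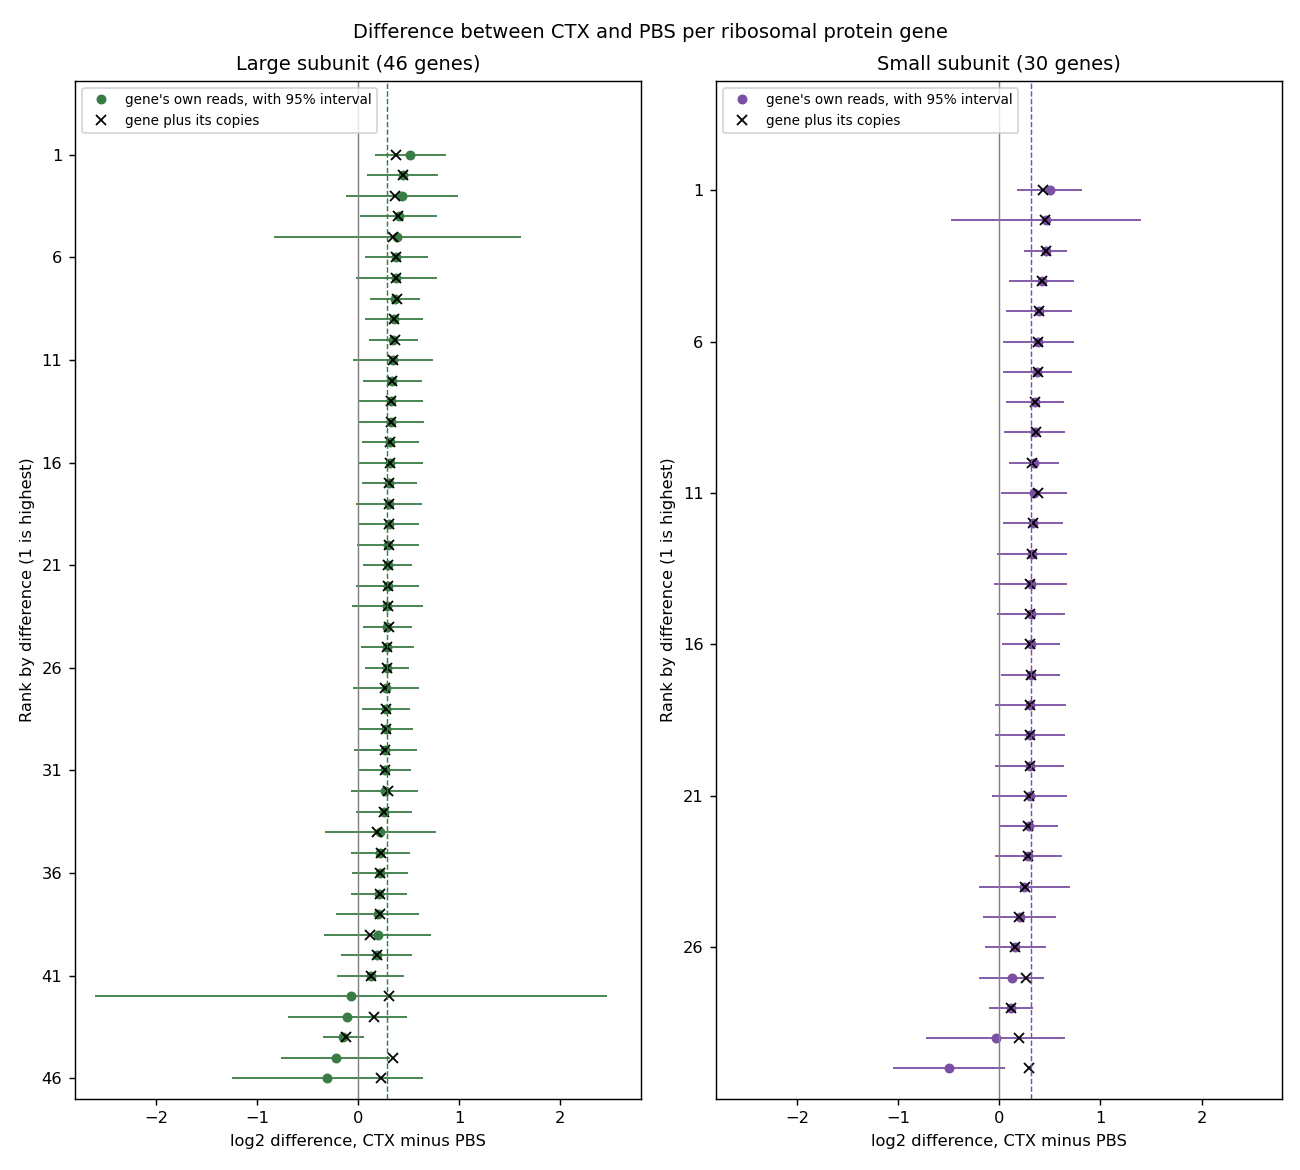
Log2 difference between CTX and PBS (CTX minus PBS, x axis) for each large subunit gene (left) and small subunit gene (right), ordered by the difference (y axis, rank), as points with 95% intervals from limma, and black crosses for the same difference with the reads of annotated copies added. The dashed lines are the medians, 0.29 for the large and 0.31 for the small subunit, and 41 of 46 and 28 of 30 points lay above 0.

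The RP genes shifted as a group from sample to sample. Relative to the mean of the 3 PBS samples, the median RP gene lay at -0.090, -0.065 and 0.16 on the log2 scale in PBS replicates 1, 2 and 3. It lay at 0.14, 0.50 and 0.27 in CTX replicates 1, 2 and 3. CTX replicates 2 and 3 were thus above every PBS sample, while CTX replicate 1 lay below PBS replicate 3, so the groups overlapped. CTX replicate 2 was the highest of the 6 samples for 68 of the 76 genes, and PBS replicate 3 the highest of the PBS samples for 70. CTX replicate 1 was below PBS replicate 3 for 47 of the 76. No CTX sample was as low as any PBS sample for 28 of the 76 genes (36.8%). The share was 15.0% of all tested genes, and 23.3% of 335 other protein-coding genes with a mean of at least 100 FPKM. The reverse held for 1 of the 76 genes, *Rps10*, against 14.1% of all tested genes and 15.8% of those 335. The count of 28 followed 2 samples closely. It was 56 without CTX replicate 1, against 23.7% of all tested genes, and 64 without PBS replicate 3, against 20.4%. Without CTX replicate 2, the sample that stood apart, it was 28, against 19.3%, and the median log2 difference was 0.21. Of the 69 genes that were higher in CTX, 68 remained above 0 without CTX replicate 2, and the difference of 32 was then more than 1.5 times smaller. Without CTX replicate 3 or PBS replicate 1 the count was 28, against 19.0% of all tested genes in both cases, and without PBS replicate 2 it was 29, against 17.3%.

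**Figure D3:**
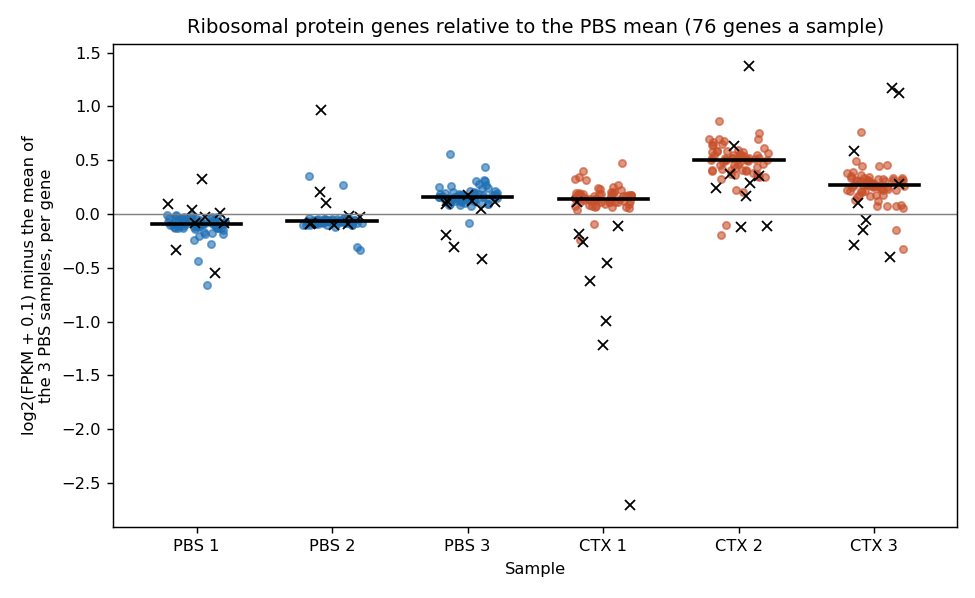
Each ribosomal protein gene's log2(FPKM + 0.1) in a sample minus its mean in the 3 PBS samples (y axis), for the 6 samples. Bars are medians over the 76 genes, from -0.090 in PBS replicate 1 to 0.50 in CTX replicate 2, and crosses are the 9 genes with over 50% of the reads of their family on copies, which spread widest.

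As a share of all FPKM, the 79 genes made up 6.92%, 7.17% and 7.98% in PBS replicates 1 to 3 and 7.71%, 9.80% and 8.43% in CTX replicates 1 to 3. The means were 7.36% ± 0.55 (SD, n = 3) in PBS and 8.65% ± 1.06 (SD, n = 3) in CTX, and the lowest CTX sample lay below the highest PBS sample. As a share of the rebuilt reads they made up 3.80% ± 0.36 in PBS and 4.62% ± 0.59 in CTX. The difference in FPKM share was 1.29 percentage points with all samples and 0.72 without CTX replicate 2. The large subunit genes had a median log2 difference of 0.29 (46 genes) and the small subunit genes one of 0.31 (30 genes).

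The RP gene with the smallest p was *Rps27l* (chromosome 9, 66946086 to 66949516), a paralogue of *Rps27* that is known as a direct target of p53 and binds Mdm2. It had 109, 116 and 131 FPKM in PBS and 164, 156 and 167 FPKM in CTX, so that the 3 CTX samples lay within a narrow range above all PBS samples. Its means were 118 ± 11.2 in PBS and 162 ± 5.4 in CTX (SD of the 3 samples). This was a log2 difference of 0.46 by limma (95% interval 0.25 to 0.67, adjusted p = 0.0659, unadjusted p = 0.00159). The adjusted p was 0.0496 with voom and 0.0480 after quantile normalization, both just under 0.05, and 0.000853 with arrayWeights, which did not converge. By limma it was 0.107 without the trend, 0.124 without the filter and 0.196 with a replicate block. With 1 sample left out it ranged from 0.0509 (CTX replicate 2) to 0.295 (PBS replicate 2). CTX replicate 2 was not the highest sample for *Rps27l*, in contrast to most RP genes, and the difference was 0.48 without it. Of the reads of its family, 0.0246% lay on copies.

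*Rps27l* was set against its parent *Rps27* (chromosome 3, 90212522 to 90213651). *Rps27* had 247, 308 and 493 FPKM in PBS and 416, 312 and 267 FPKM in CTX, with wide overlap and a log2 difference of -0.037 (SE 0.28, adjusted p = 0.955). *Rps27* has a copy, *Rps27rt*, which lies on chromosome 9 as *Rps27l* does. Over the 255 coding bases (GENCODE M21, GRCm38), *Rps27rt* differed from *Rps27* at 0 positions and *Rps27l* at 61 (76.1% identity). Bases 7 to 96 of the 3 coding sequences are shown, since they set the copy and the paralogue apart, with capitals where a base differs from *Rps27*.
Rps27, chr3:90213212-90213301, minus strand: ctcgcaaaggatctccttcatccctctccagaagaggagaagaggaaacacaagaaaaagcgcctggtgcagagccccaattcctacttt
Rps27rt, chr9:114982612-114982701, minus strand: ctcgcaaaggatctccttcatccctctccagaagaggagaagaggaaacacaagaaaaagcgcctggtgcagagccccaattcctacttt
Rps27l, chr9:66946831-66946920, plus strand: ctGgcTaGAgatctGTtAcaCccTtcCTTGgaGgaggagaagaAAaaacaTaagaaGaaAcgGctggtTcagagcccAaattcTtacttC
In this stretch *Rps27l* differed from *Rps27* at 24 of 90 bases, and the longest run without a difference in the whole coding sequence was 11 bases. *Rps27rt* had 314, 285 and 127 FPKM in PBS and 175, 612 and 550.0 FPKM in CTX. It was low in PBS replicate 3, where *Rps27* was highest, and high in CTX replicates 2 and 3. A coding read of *Rps27* or *Rps27rt* cannot be assigned by its sequence, and *Rps27* held between 57.5% and 91.5% of the reads of its family, depending on the sample. With the reads of its copies added, the log2 difference of *Rps27* was 0.19. The log2 ratio of *Rps27l* to *Rps27* was higher in CTX by 0.49 (two-sided exact permutation test, p = 0.20, n = 3 per group, smallest possible p = 0.10), and by 0.27 with the copies of *Rps27* added (exact permutation test, p = 0.20). It was 0.29 without PBS replicate 3, 0.33 without CTX replicate 3 and up to 0.66 with another sample left out. Of the 5 paralogues set against a parent, the only other one above the filter was *Rps4l*. It is a paralogue of *Rps4x* and not a protein-coding row in the annotation. Its log2 ratio to *Rps4x* was -4.46, -4.59 and -4.44 in PBS and -4.47, -5.10 and -5.08 in CTX, a difference of -0.39 (exact permutation test, p = 0.20), or -0.60 without CTX replicate 1. The parents of the other paralogues had log2 differences of 0.35 (*Rpl3*, adjusted p = 0.159), 0.32 (*Rpl10*, 0.219) and 0.18 (*Rpl39*, 0.498).

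**Figure D4:**
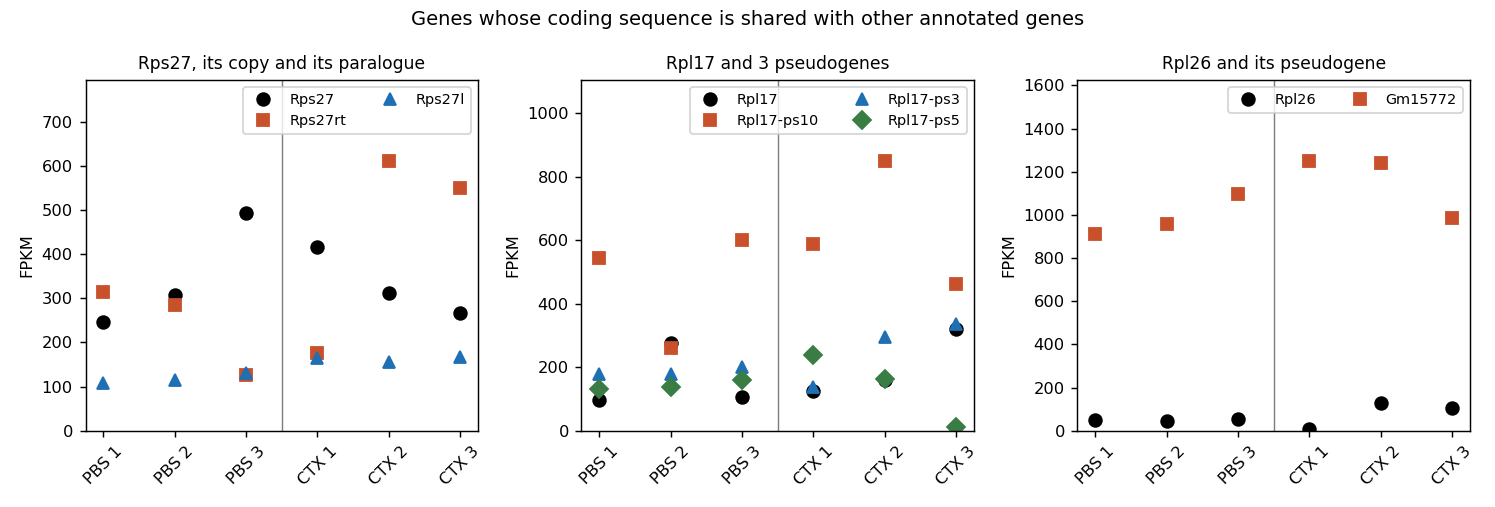
FPKM (y axis) in each of the 6 samples of *Rps27* with its copy *Rps27rt* and its paralogue *Rps27l*, of *Rpl17* with 3 pseudogenes, and of *Rpl26* with the pseudogene *Gm15772*. *Rps27* and *Rps27rt* changed places between samples of the same group, while *Rps27l* lay between 109 and 131 FPKM in PBS and between 156 and 167 FPKM in CTX.

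Many RP genes share sequence with copies elsewhere in the genome. Exact runs of 50 bases from the coding sequence were looked for in all other annotated transcripts. All RP genes but 3, *Rpl3l* and *Rpl39l* among them, shared at least 1 run with another gene, 63 shared more than 50% of them and 18 shared all. The 1031 copies measured took 0.50% ± 0.050 of all reads in PBS and 0.61% ± 0.078 in CTX (SD, n = 3), and 478 of them had no read. For 9 genes, more than 50% of the reads of the family lay on copies: *Rpl35a*, *Rpl24*, *Rpl17*, *Rpl26*, *Rps18*, *Rpl21*, *Rpl34*, *Rpl29* and *Rps10*, with 72.7% to 97.0%. These 9 had a median log2 difference of -0.067 (-0.30 without CTX replicate 2 and 0.23 without CTX replicate 1), against 0.31 for the other 67 genes. With the reads on copies added, the 9 genes had differences from 0.12 to 0.35, 75 of the 76 RP genes were higher in CTX, and the median was 0.30 with quartiles 0.080 apart, in place of 0.10.

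The 5 largest differences below 0 were in *Rps10*, *Rpl29*, *Rpl21*, *Rpl13a* and *Rpl24*, and 4 of these are among the 9. *Rps10*, a small subunit protein ubiquitinated at stalled ribosomes, had 3.08, 2.83 and 3.1 FPKM in PBS and 1.46, 2.78 and 2.25 FPKM in CTX. The CTX samples lay below the PBS samples without overlap, with a log2 difference of -0.50 (SE 0.23, adjusted p = 0.283). Its pseudogene *Rps10-ps2* had 299, 308 and 354 FPKM in PBS and 359, 458 and 396 FPKM in CTX, and the family as a whole had a difference of 0.29. *Rpl29* had 2.69, 2.71 and 2.19 FPKM in PBS and 1.03, 3.25 and 2.43 FPKM in CTX and a log2 difference of -0.30 (SE 0.39, adjusted p = 0.681). *Rpl21* had 2.79, 2.58 and 2.96 FPKM in PBS and 1.77, 3.3 and 2.25 FPKM in CTX and a log2 difference of -0.22 (SE 0.22, adjusted p = 0.59). *Rpl24*, a protein of the bridge between the subunits, had a log2 difference of -0.11 (SE 0.24, adjusted p = 0.822). With copies added these 3 had differences of 0.23, 0.35 and 0.16. *Rpl13a*, which is also known as a regulator of translation in inflammation, had 19.7, 20.5 and 23.5 FPKM in PBS and 19.8, 18.5 and 19.1 FPKM in CTX, with overlap. Its difference of -0.15 (SE 0.083, adjusted p = 0.368) was -0.12 with copies added, the only family below 0.

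*Rpl26* and *Rpl17* varied most within groups. *Rpl26*, which sits at the exit of the peptide tunnel and is known to bind p53 mRNA, had 47.6, 45.4 and 53 FPKM in PBS and 7.37, 126 and 106 FPKM in CTX. CTX replicate 1 was the lowest and CTX replicates 2 and 3 the highest of the 6 samples. The log2 difference was -0.067 (SE 1.05, adjusted p = 0.982), 1.25 without CTX replicate 1, which passed the limits for a differentially expressed gene, and 0.30 with copies added. The pseudogene *Gm15772* had 913, 958 and 1097 FPKM in PBS and 1251, 1240.0 and 985 FPKM in CTX. *Rpl17*, a protein of the exit tunnel, had 97.1, 278 and 107 FPKM in PBS and 125, 159.8 and 321 FPKM in CTX, highest in 1 sample of each group. *Rpl17-ps10* was lowest in those same samples, with 543, 262 and 600.3 FPKM in PBS and 589, 851 and 462 FPKM in CTX. The difference of *Rpl17* was 0.39 (SE 0.51) alone and 0.35 with copies added.

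*Rpl30*, *Rps27a* and *Rps27l* were among the genes with the 5 largest differences above 0, and none of the 5 had an adjusted p below 0.05. *Rpl30* had 89.9, 124 and 96.8 FPKM in PBS and 135, 167 and 139 FPKM in CTX, without overlap, and a log2 difference of 0.51 (SE 0.15, adjusted p = 0.151). With copies added its difference was 0.38, and *Rpl30* held 76.1% to 96.3% of the reads of its family in the PBS samples and 91.3% to 93.0% in the CTX samples. *Rps27a*, which is made as a fusion with ubiquitin and so supplies ubiquitin as well as an RP, had 101, 204 and 198 FPKM in PBS and 135, 291 and 271 FPKM in CTX, with overlap, and a log2 difference of 0.46 (SE 0.39, adjusted p = 0.524), or 0.26 without CTX replicate 2.

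*Rps6*, the substrate of S6 kinase by which mTORC1 activity is commonly read, had 428, 422 and 469.6 FPKM in PBS and 485, 688 and 555 FPKM in CTX. The groups did not overlap, and the log2 difference was 0.38 (SE 0.14, adjusted p = 0.229), or 0.24 without CTX replicate 2. This is the transcript, and the phosphorylation of the protein was not measured here.

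*Rpl5* and *Rpl11* form a particle with a ribosomal RNA that, when in excess, binds and blocks Mdm2. *Rpl5* had 189, 182 and 199 FPKM in PBS and 198, 279 and 214 FPKM in CTX, with overlap and a log2 difference of 0.26 (SE 0.14, adjusted p = 0.334), or 0.12 without CTX replicate 2. *Rpl11* had 224, 236 and 276 FPKM in PBS and 276, 324 and 287 FPKM in CTX, where CTX replicate 1 and PBS replicate 3 were level, and a log2 difference of 0.27 (SE 0.11, adjusted p = 0.249). Of the 14 RP genes whose proteins are known to bind Mdm2, 12 were higher and 2 (*Rpl26* and *Rps27*) lower in CTX. Their median log2 difference was 0.31, close to the 0.30 of all 76 RP genes, with a range from -0.067 to 0.46 and no adjusted p below 0.05. Of the 14, 7 (50%) were above PBS without overlap, against 36.8% of the 76 RP genes and 15.0% of all tested genes. The 9 of these genes not given elsewhere lay between 0.29 and 0.42. They were *Rpl37* (0.30, adjusted p = 0.252), *Rps25* (0.29, 0.26), *Rps14* (0.31, 0.296), *Rps3* (0.31, 0.237), *Rps15* (0.32, 0.274), *Rps7* (0.34, 0.242), *Rps26* (0.35, 0.213), *Rpl23* (0.36, 0.149) and *Rps20* (0.42, 0.178). *Rpl23* had 216, 220.1 and 249.7 FPKM in PBS and 275, 325 and 282 FPKM in CTX, with a clear gap between the groups.

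The proteins of the stalk, which binds and activates the elongation factors, had log2 differences of 0.29 (*Rplp0*), 0.32 (*Rplp1*), 0.22 (*Rplp2*) and 0.40 (*Rpl12*, at the base of the stalk). *Rplp1* had 1479.9, 1507 and 1758 FPKM in PBS and 1809, 2158 and 1935 FPKM in CTX and an adjusted p of 0.26. *Rplp0* had 757, 737 and 840.3 FPKM in PBS and 874, 1029 and 949.5 FPKM in CTX and an adjusted p of 0.228. Neither gene overlapped between the groups. In the exit tunnel, *Rpl4* had 736, 721 and 824 FPKM in PBS and 892, 1092 and 943 FPKM in CTX and a log2 difference of 0.36 (SE 0.12, adjusted p = 0.188), and *Rpl39* had 0.18. Around the mouth of the tunnel, where nascent chain factors dock, the differences were 0.26 (*Rpl19*), 0.29 (*Rpl23a*), 0.22 (*Rpl31*) and 0.28 (*Rpl35*), beside *Rpl26*. At the mRNA channel and decoding site of the small subunit, *Rps2* (0.33, adjusted p = 0.221), *Rps3* and *Rps23* (0.30, 0.325) differed by similar sizes.

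Of the 12 RP genes mutated in Diamond-Blackfan anaemia that were examined, 10 were higher and 2 (*Rps10* and *Rpl26*) lower in CTX, with a median of 0.27 and no adjusted p below 0.05. *Rps19*, the gene most often mutated, had a mean FPKM of 94.2 ± 5.12 in PBS and 119.8 ± 14.2 in CTX (SD of the 3 samples), without overlap, and a log2 difference of 0.34 (SE 0.10, adjusted p = 0.165). *Rps24* (0.16), *Rps29* (0.20) and *Rpl15* (0.29) were higher on average, and of these *Rpl15* did not overlap. *Rpl35a*, with 72.7% of the reads of its family on copies, had 0.19.

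RPs outside the naming rule had differences of similar size. The 9 such genes had a median log2 difference of 0.29 (0.14 without CTX replicate 2), 8 were higher and none had an adjusted p below 0.05. *Rps3a1* had 941, 919 and 1089 FPKM in PBS and 1149, 1639 and 1224 FPKM in CTX and a log2 difference of 0.43 (SE 0.17, adjusted p = 0.233). *Fau*, a fusion of a ubiquitin-like protein and a small subunit protein, had 521, 527 and 625 FPKM in PBS and 649, 724 and 663 FPKM in CTX and a log2 difference of 0.29 (SE 0.11, adjusted p = 0.228). *Rpsa*, also known as a laminin receptor, had 116, 119 and 136 FPKM in PBS and 117, 232 and 126 FPKM in CTX, where the excess of CTX lay in replicate 2. *Rack1*, a scaffold on the small subunit, had a log2 difference of 0.22 (SE 0.10, adjusted p = 0.287), and *Rps27rt* a log2 difference of 0.79 (SE 0.57, adjusted p = 0.456). *Rpl22l1* (0.15) and *Rpl36al* (0.24) are paralogues, and *Rpl7l1*, a paralogue with a part in ribosome assembly, was the lower one, with 29.7, 28.2 and 30.9 FPKM in PBS and 26, 27.7 and 26.3 FPKM in CTX and a log2 difference of -0.15 (SE 0.065, adjusted p = 0.267).

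Translation factors and associated genes listed for a known TOP motif in their mRNA had differences close to those of the RP genes. The motif was taken from what is known of these genes, and its link to the differences was not tested. All 14 genes of this list were higher in CTX, with a median of 0.31 (0.26 without CTX replicate 2). Of these, 12 were without overlap (85.7%, against 15.0% of all tested genes) and none had an adjusted p below 0.05. *Eif3f*, a subunit of an initiation factor, had 104, 103 and 116 FPKM in PBS and 124, 174 and 135 FPKM in CTX and a log2 difference of 0.41 (SE 0.14, adjusted p = 0.191). *Npm1*, a nucleolar chaperone, had 186, 181 and 199 FPKM in PBS and 222, 299 and 233 FPKM in CTX and a log2 difference of 0.40 (SE 0.13, adjusted p = 0.178). The smallest differences were in the elongation factor subunits *Eef1g* (0.21, adjusted p = 0.376) and *Eef1d* (0.083, 0.522).

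The 55 ribosome biogenesis genes had a median of 0.15, with 47 higher and 15 without overlap above PBS (27.3%, against 15.0% of all tested genes), and a median of 0.052 without CTX replicate 2. Their largest differences were in *Rcl1* (0.44, adjusted p = 0.217) and *Rrs1* (0.42, 0.223), and their lowest in *Bysl* (-0.18, 0.334) and *Nob1* (-0.12, 0.335). *Rcl1*, which acts in processing of the small subunit RNA, had 11.1, 11.8 and 12.7 FPKM in PBS and 13.3, 20.6 and 15.3 FPKM in CTX, with CTX replicate 2 far above the rest. The 29 other initiation factors had a median of 0.13 (0.075 without CTX replicate 2), with *Eif1* highest (0.35, adjusted p = 0.134), then *Eif2b3* (0.26, 0.298), and *Eif2b4* (-0.16, 0.27) and *Eif2b5* (-0.059, 0.662) lowest.

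Genes that control TOP mRNA translation were split in direction. The 12 genes had a median of -0.076, with 5 higher and 7 lower, 4 below PBS without overlap (33.3%, against 14.1% of all tested genes) and no adjusted p below 0.05. *Mlst8*, a subunit of the mTOR complexes, had 8.4, 8.2 and 7.92 FPKM in PBS and 6, 6.33 and 6.78 FPKM in CTX and a log2 difference of -0.36 (SE 0.077, adjusted p = 0.0905). *Rps6kb2*, an S6 kinase, had a log2 difference of -0.23 (SE 0.083, adjusted p = 0.213), while *Larp1* had a log2 difference of 0.13 (SE 0.079, adjusted p = 0.407) and *Rheb*, the activator of mTORC1, a log2 difference of 0.15 (SE 0.091, adjusted p = 0.396). Among 19 genes of RP surveillance, p53 control and stalled ribosome rescue, the median was 0.074 (0.032 without CTX replicate 2, and -0.00011 with library total scaling, under which that of all tested genes was -0.081) and 1, *Mdm2*, had an adjusted p below 0.05. *Mdm2* rose from 11.9, 12.9 and 11.4 FPKM in PBS to 24.1, 18.7 and 23.9 FPKM in CTX, with a log2 difference of 0.87 (SE 0.12, adjusted p = 0.0224), below the 2-fold limit. *Pelo*, a ribosome rescue factor, had a log2 difference of 0.46 (SE 0.13, adjusted p = 0.148), and the lowest were *Hbs1l* (-0.12, 0.392) and *Zfp598* (-0.10, 0.586).

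The mitochondrial ribosome served as the closest other group of genes. Its proteins are also encoded in the nucleus, and their mRNAs are not known for the TOP motif. Of its 74 tested genes, 26 were higher and 48 lower in CTX, with a median of -0.055 and 3 above PBS without overlap (4.05%, against 15.0% of all tested genes). No gene had an adjusted p below 0.05. Its median lay at 0.095 in PBS replicate 3, as that of the RP genes did at 0.16, but at -0.054 in CTX replicate 2. *Mrpl9* was highest (0.25, adjusted p = 0.131), then *Mrps28* (0.19, 0.386), and *Mrps21* (-0.36, 0.175) and *Mrpl33* (-0.29, 0.405) were lowest. Other protein-coding genes of high level (335 with a mean of at least 100 FPKM) had a median of 0.0086, and 342 other protein-coding genes with exonic lengths under 1 kb had one of -0.0054.

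**Figure D5:**
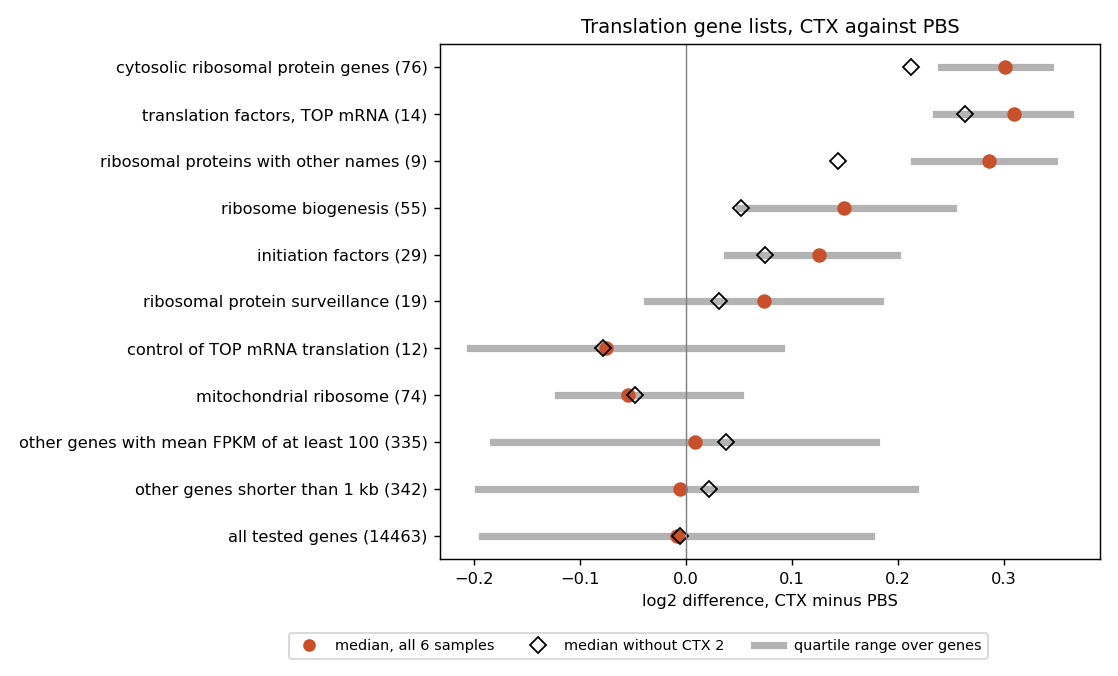
Median log2 difference between CTX and PBS (x axis) over the tested genes of each list, whose number is in brackets, with all 6 samples (orange points) and without CTX replicate 2 (open diamonds), and the quartile range over genes (grey bars). The cytosolic ribosomal protein genes lay at 0.30, or 0.21 without CTX replicate 2, and the mitochondrial ribosome at -0.055.

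RP pseudogenes were also higher in CTX. The 290 pseudogenes with a -ps name took 0.28%, 0.27% and 0.32% of all reads in PBS and 0.32%, 0.38% and 0.34% in CTX. CTX replicate 1 and PBS replicate 3 were nearly level (0.3247% and 0.3240%), and CTX was higher by 0.061 percentage points on average (n = 3 per group). A read from a run of bases shared by a pseudogene and its parent cannot be assigned by its sequence.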

How the data were processed

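RNA-seq of mouse GCs was analysed in 6 samples, 3 PBS and 3 CTX, grouped by their labels, which give no batch. Per the labels, RNA was extracted with an RNeasy kit and libraries were made with a NEBNext Ultra kit. The submitters' processing notes name CASAVA 1.8, fastp, HISAT2 2.0.5, featureCounts 1.5.0-p3, DESeq2 1.20.0 and the build mm10. Strandedness and the treatment of reads with several matches are not given in the sources used here. The authors deposited FPKM values for 54532 genes, which carry a scaling between samples by the authors. The authors' group means, log2 fold changes and p-values in the same table were not used. No per-sample column was left unused (0).

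Multiplied by gene length, 100% of the values corresponded to whole numbers of reads (tolerance 0.01), so reads were rebuilt. A mean of at least 0.5 FPKM was required (14463 genes), and log2(FPKM + 0.1) was compared with limma 3.58.1 (lmFit and eBayes with trend, R 4.3.3), with Benjamini-Hochberg adjustment over all tested genes. Differences on this scale understate those of low genes. The fit was also run on simulated reads that had the spread of the PBS samples in both groups. Such reads cannot show how the fit performs with the wider spread of the CTX samples. Single ratios were compared with exact permutation tests. Shared sequence was sought as exact runs of 50 bases in GENCODE M21 (GRCm38), and family sums add to each RP gene the reads of pseudogenes, and of genes at least 50% covered by such runs. Tables were made in Python with pandas, NumPy and SciPy. Intervals and read floors cover counting error or the spread between these samples only.

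Genes named were those below the filter, past the limits, or with the 5 largest rises, 5 largest falls, 5 highest and 5 lowest levels, those on the role lists, RPs outside the naming rule, and for other lists the 2 largest rises and falls and those past the limits. Some genes that met these rules are not reported here by name. *Rpl26* and *Rpl17* pseudogenes, *Rps10-ps2* and *Gm15772* were chosen after their values were seen. The RP genes and lists were chosen with earlier results of these data known. Alternatives were pseudocounts of 1 and 0.01, no filter, a mean of at least 5 FPKM, 75th percentile, quantile and library total scaling, a replicate block, arrayWeights, no trend, no fold threshold, protein-coding genes only, voom, each sample left out, and other memberships. Family sums, and leaving out genes with most reads on copies, were added after seeing the data.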

Additional observations from a re-analysis of the deposited data

How the results depend on the processing

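The median log2 difference of the RP genes was above 0 under every alternative run, from 0.16 (quantile normalization) to 0.31 (without the genes that had most reads of their family on copies), and from 0.21 to 0.39 with 1 sample left out. It was 0.28 with 75th percentile scaling and 0.23 with library total scaling. The median of all tested genes was -0.031 and -0.081 under these 2 scalings. No RP gene passed both limits under any alternative except without CTX replicate 1, where *Rpl26* did (range 0 to 1 with 1 sample left out). The number with an adjusted p below 0.05 was 0 in the reported fit, 1 after quantile normalization, 1 with voom (*Rps27l* in both), 59 with arrayWeights and 0 to 1 with 1 sample left out. With arrayWeights, whose estimate did not converge, 39.8% of all tested genes passed, and 1 other translation gene passed both limits, against 0 in the reported fit. The number of the 76 RP genes without overlap above PBS was 28 in the reported fit, against 15.0% of all tested genes. That number was 22 with 75th percentile scaling, 20 with library total scaling and 13 after quantile normalization. The share of all tested genes was not computed under these scalings. With 1 sample left out the number was 28 to 64, where 17.3% to 23.7% of all tested genes did not overlap above PBS. The lowest Spearman correlation between samples was 0.968 to 0.976 with 1 sample left out. The difference in FPKM share was 0.72 to 1.76 percentage points with 1 sample left out and 1.82 with copies added.

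Single genes that changed sign did so as follows. *Rps27* was at 0.19 with family sums, 0.11 without CTX replicate 3 and 0.24 without PBS replicate 3, within -0.26 to 0.24 over the samples left out. *Rpl17* was at -0.0082 without CTX replicate 3, within -0.0082 to 0.87. *Rpl26* was at 1.09 with arrayWeights, 0.30 with family sums and 1.25 without CTX replicate 1, within -0.79 to 1.25. *Rps10* was at 0.29 with family sums. For family sums the change follows from the added reads. For the others the cause was not tested. The replicate numbers gave no sign that they pair the samples. Correlations of deviations were 0.056, 0.024 and 0.0058 for same numbers and -0.076 to 0.059 for different numbers. With 3 samples per group these cannot exclude pairing. With a replicate block the median was 0.30, and 0 RP genes had an adjusted p below 0.05.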
